A study of Capra hircus with 198 samples.

Results

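The regions described here are the overlapping lncRNAs of a goat tissue atlas. These are long noncoding RNAs that the study's own annotation places over a known gene on the same strand, sharing part of its exons without being one of its known transcripts. Members were taken as every gene record of the deposited lncRNA annotation whose class is overlapping and that is also a row of the gene count table. This left 1855 of 1856 overlapping records, out of 14511 lncRNA features and 39734 features in all. Each carries the name of its host gene followed by OT1, each host has 1 member, and all 1855 hosts are rows of the same table.

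The atlas covers 33 tissues dissected from each of 6 adult Murciano-Granadina female goats, with a total RNA library for each. The lactating animals were numbered 2, 3 and 6 and the dry ones 54, 64 and 73, so each tissue has 3 libraries of each state. No treatment or altered genotype is given. State and animal cannot be told apart, because the same 3 goats stand for a state in every tissue.

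A lncRNA that overlaps a coding gene on the same strand can be an extended end of that gene, a readthrough transcript into the next gene, or an RNA with its own promoter, and short reads from shared exons do not by themselves tell these apart. Where such an RNA follows its host across tissues, the pair is said to be co-expressed, which is a frequent pattern among neighbouring genes.

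Library totals ranged from 1.31 to 8.97 in units of 1e+06 counts (median 4.63). Values are given as CPM, the count over the library total times 1e+06. On that scale 3 counts correspond to between 0.335 and 2.29 CPM, and lower values are at the limit of detection. Of 31 pairs of a tissue and a marker gene, 25 were highest in the paired tissue, and in all 31 that tissue was among the 3 highest. Some genes were paired with several tissues and can be highest in only 1. The pairs not ranked first were all of such genes. By whole-transcriptome profile 38 libraries lay nearest the mean of another tissue, among them all 12 pituitary libraries, whose lobes are alike, 4 of rumen and the 3 pineal gland libraries of the lactating goats. The abomasum and duodenum libraries of goat 2 each lay nearest the other of these tissues, and so did its frontal neocortex and pineal gland libraries. The hypothalamus library of goat 2 lay nearest pineal gland too.

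The label of coding genes held for most hosts. In the RefSeq annotation 1695 hosts (91.4%) were protein coding, 155 (8.36%) were lncRNAs themselves, 2 were transcribed pseudogenes and 1 each was a misc_RNA, a miRNA and a tRNA. The labels name no genome build. Every member overlapped its host in the coordinates of RefSeq assembly ARS1.2, so positions below are read in that assembly.

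Members differed in where they lay on the host. In 722 (38.9%) the member ran past the host's 3′ end, in 594 (32.0%) it stayed inside the host, in 451 (24.3%) it ran past the 5′ end and in 88 (4.74%) it spanned the host. Over the 810 members that ran past the 3′ end or spanned the host, the median reach downstream was 11410.5 bases. All members were spliced, with a median of 3 exons (range 2 to 62) and a median exon length of 2179 bases (206 to 36860). By number, chromosomes 19, 11 and 18 held the most members, with 114, 105 and 97.

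Most exon sequence of many members lay outside the host that names them. A median of 54.1% of a member's exon bases fell inside the host's span, and in 896 members (48.3%) it was under 50%. Of the 1810 members placed on a chromosome, 853 (47.1%) had a span that also held part of another coding gene. In 838 of the members another coding gene reaching 1 CPM in a tissue lay under the span, called the second gene here (the one with the highest mean where there were several). In 635 of those 838 (75.8%) more of the member's exon bases lay inside the second gene than inside the named host, with medians of 65.0% in the second gene and 19.7% in the host. The strand of the second gene was not available. The second-gene comparison was added after the data had been seen.

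The members took a large share of the counts. Together they held 18.4% of all counts on average (12.6% to 24.0% per library), against 1.64% for their hosts (0.689% to 2.76%). These are shares of counts and not levels per length, because no exon length of the hosts was available. By tissue means, 1540 members and 1801 hosts reached 1 CPM in at least 1 tissue, and 2 members were at 0 in all libraries. In all 33 tissues 1015 members (54.7%) and 919 hosts (49.5%) reached 1 CPM. The median member had a mean of 12.9 CPM over tissues and the median host 4.82 CPM. Member counts exceeded host counts by mean in 1067 pairs (57.5%), in every library in 641 pairs and in no library in 207 pairs.

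Position and level went together. Members inside the host had a median mean of 0.224 CPM and exceeded their host in 15.8% of pairs. Those past the 3′ end had a median of 57.5 CPM and exceeded it in 78.0%. Members whose span held part of another coding gene had a median of 94.9 CPM, against 0.890 CPM for those whose span held none, and the former held 92.5% of all member counts. Their exon lengths differed as well, with medians of 4149 and 1217 bases, and longer exons collect more counts.

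A few members dominated the counts. The 8 with the highest means held 13.5% of all member counts and the 100 highest held 48.7%, while 21 members had a mean above 1000 CPM. All 8, and 98 of the 100, lay over another coding gene. KDELR3-OT1 (chr5:109083407-109102637, + strand, 13 exons) past the 3′ end of the KDEL receptor gene KDELR3 had the highest mean, 4525 CPM. In thyroid, its top tissue, its 6 libraries ranged from 6519 to 8430 CPM (median 7002), and in masseter muscle, its lowest, from 1299 to 2071 CPM (median 1545). The ranges of the tissues did not overlap. The host KDELR3 had a mean of 4.99 CPM, and 84.0% of the exon bases of the member lay inside DDX17, an RNA helicase gene.

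RFC4-OT1 (chr1:80141667-80148137, + strand) had the second highest mean, 4213 CPM, and the highest of the 8 per length, 1467 CPM per kilobase of exon. In adrenal cortex its libraries ranged from 7368 to 11610 CPM (median 8860) and in medulla oblongata from 2118 to 3274 CPM (median 2650). Its host RFC4, a subunit of the replication clamp loader, was highest in lung (38.4 CPM) and did not share its pattern (rho = -0.13 over 33 tissues). EIF4A2, a translation initiation helicase, holds 99.1% of its exon bases and was also highest in adrenal cortex (202 CPM). Its rho with the member was 0.70.

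Of the others, 5 also lay over a second gene, with 32.2% (CEP95-OT1) to 76.9% (ANKRD13C-OT1) of their exon bases inside it. SLC23A1-OT1 lay over MATR3 (matrin 3), CEP95-OT1 over DDX5 (an RNA helicase), ULK4-OT1 over CTNNB1 (beta-catenin), LOC102169972-OT1 over RPL7A (a ribosomal protein) and ANKRD13C-OT1 over SRSF11 (a splicing factor). The rho with the second gene was 0.54, 0.80, 0.57, 0.96 and 0.83 in that order, against 0.34, 0.60, 0.31, 0.54 and 0.67 with the named host. In each of the 5 the member and the second gene correlated more closely than the member and its host. The last of the 8, CCDC63-OT1, was a muscle transcript and is described with the striated muscle tissues.

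Across the 33 tissue means, members tended to follow their host, though loosely. Over 1489 pairs in which both reached 1 CPM, the median Spearman rho was 0.46 (quartiles 0.18 and 0.70). Single pairs reached a rho of at least 0.8 in 192 cases (12.9%) and lay below 0 in 199 (13.4%), and the member and the host peaked in the same tissue in 386 pairs (25.9%). These are descriptions with no test: the 33 points share goats, libraries and depth. Within a single goat's 33 libraries the median was lower, from 0.30 to 0.33 across the 6 goats.

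The relation was closer with the host than with genes beside it. For 1453 pairs with a flanking coding gene that touches neither member nor host, the median rho of the member with its flanks was 0.18, and 1110 members (76.4%) correlated more closely with the host. Among the 781 measured members with a second gene, the median rho was 0.55 with the second gene and 0.49 with the named host. The second gene had the higher rho in 416 of them (53.3%). Their top tissue was shared with the second gene in 231 (29.6%) and with the host in 193 (24.7%).

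**Figure D1:**
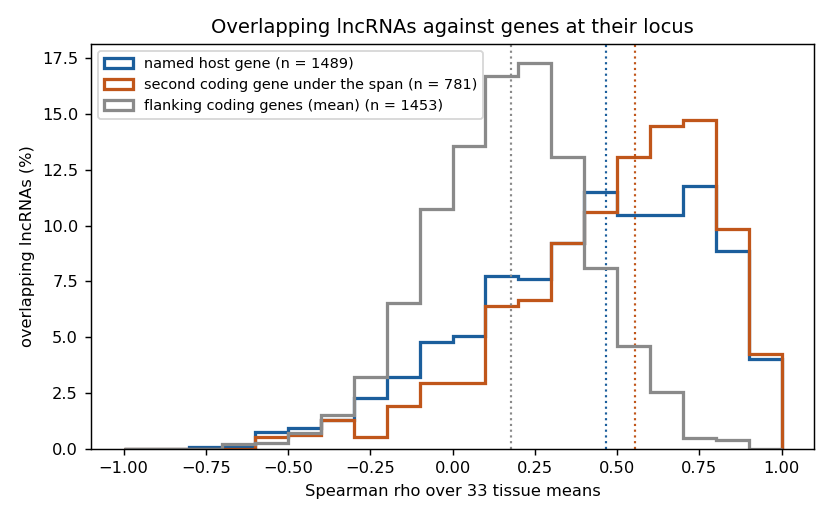
Distribution of Spearman rho over 33 tissue means between overlapping lncRNAs and the named host gene (n = 1489), the second coding gene under the span (n = 781) and the mean of the flanking coding genes (n = 1453), as a percentage of members per bin of rho. Dotted lines mark the medians of 0.46, 0.55 and 0.18; the flanking genes lie nearest 0.

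The correlation differed by position. Its median was 0.64 for members spanning the host, 0.52 past the 3′ end, 0.44 past the 5′ end and 0.36 inside the host. The second gene stood apart from the host mainly for members past the 5′ end: in 217 such members the median was 0.62 with the second gene and 0.38 with the host. Past the 3′ end, in 488 members, both were near each other at 0.54 and 0.53. By exon placement, with more exon bases in the second gene (596 members) the medians were 0.57 with the second gene and 0.49 with the host, and with at least as many in the host (185 members) they were 0.46 and 0.48.

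**Figure D2:**
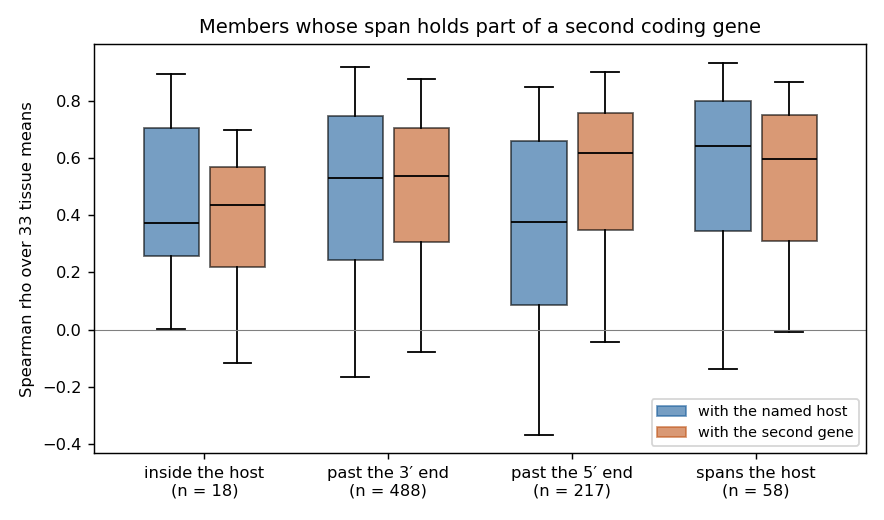
Spearman rho over 33 tissue means with the named host and with the second coding gene, for the 781 members whose span holds part of a second measured coding gene, by position on the host. Boxes give quartiles and median, whiskers the 5th and 95th percentiles; past the 5′ end the medians are 0.38 and 0.62.

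By kind of host, members of lncRNA hosts had a median rho of 0.57 (113 pairs) and those of coding hosts 0.46 (1373 pairs). Ion channel hosts (15 pairs) stood at 0.66, solute carriers (29 pairs) at 0.59, homeobox genes (7 pairs) at 0.61 and zinc finger proteins (19 pairs) at 0.42. Cytosolic ribosomal protein hosts (3 pairs) stood at 0.07. The groups are small and were not tested against each other. In the other lncRNA classes with a named host the median was 0.53 for antisense, 0.36 for intronic and 0.33 for divergent lncRNAs, so the overlapping class lay between the antisense and the intronic ones.

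Among pairs in which both reached 5 CPM in a tissue, the closest followers of their hosts were GDA-OT1, ASF1A-OT1, LOC102171438-OT1, LOC108636336-OT1, CACNB2-OT1 and PYROXD1-OT1, with rho from 0.97 to 0.99. GDA encodes guanine deaminase, which converts guanine to xanthine. GDA-OT1 (chr8:48272055-48278540, inside the host) ranged in omasum from 89.3 to 274 CPM (median 213) while GDA itself ranged from 103 to 318 CPM (median 244). In adrenal medulla both were near the limit of detection, GDA-OT1 from 0.377 to 1.34 CPM and GDA from 0.206 to 1.01 CPM. Member and host were thus high and low in the same tissues.

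ASF1A-OT1 (chr9:19343926-19373468) follows ASF1A, a histone chaperone gene. It was highest in ovary, where its libraries ranged from 75.3 to 201 CPM (median 81.2), with ASF1A from 34.9 to 123 CPM (median 41.0). Its span also holds MCM9, with which its rho was -0.00, although 98.9% of its exon bases lie inside that gene's span. CACNB2-OT1 (chr13:32330356-32416282) runs past the 3′ end of CACNB2, a voltage-gated calcium channel subunit. In cerebellar hemisphere it ranged from 1024 to 1283 CPM (median 1136) and in left ventricle from 71.4 to 136 CPM (median 107), with no overlap. CACNB2 was ordered the same way, with means of 44.7 and 7.50 CPM.

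The most opposed pairs were FZD4-OT1, LOC102169855-OT1, TOMM70-OT1, ITPR3-OT1, C11H2orf49-OT1 and RNF207-OT1, with rho from -0.72 to -0.53. FZD4 is a receptor for Wnt proteins. FZD4-OT1 (chr29:8045214-8048168, inside the host) was highest in cerebellar hemisphere, from 10.1 to 16.6 CPM (median 12.9), where FZD4 ranged from 0 to 4.34 CPM (median 1.49). In subcutaneous fat, the top tissue of FZD4 (10.5 to 108 CPM, median 34.1), FZD4-OT1 ranged from 0 to 3.07 CPM (median 0). Member and host did not overlap in either tissue, in opposite directions.

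TOMM70-OT1 (chr1:44486687-44530515) runs past the 5′ end of TOMM70, a receptor for import into mitochondria. It was highest in adenohypophysis, from 90.4 to 117 CPM (median 108), and lowest in esophagus, from 3.23 to 10.8 CPM (median 5.55), without overlap. TOMM70 varied less, with a highest mean of 18.6 CPM in rumen. RNF207-OT1 (chr16:45658958-45681451), over the ribosomal protein gene RPL22, was highest in omasum, from 1188 to 1722 CPM (median 1443), where RNF207 ranged from 0 to 0.616 CPM. Its rho was -0.53 with RNF207 and 0.89 with RPL22.

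By median, members as a class were less tissue-specific than their hosts, though not at low levels or inside the host. The specificity index tau, which runs from 0 for a gene at one level in all tissues to 1 for a gene in a single tissue, had a median of 0.275 over 1540 members, 0.393 over 1801 hosts and 0.441 over all 31305 features that reached 1 CPM. In 556 of 1489 pairs (37.3%) the member had the higher tau. The authors' deposited table of tau gave a median of 0.280 for 1536 members, for which the value here was 0.274. Tau of members fell with level: the median was 0.642 in those with a mean up to 10 CPM and 0.131 above 100 CPM. Their hosts stood at 0.427 and 0.359, so by median the low-count members were more tissue-specific than their hosts. So were members inside the host (0.601 against 0.427) and those over no other coding gene (0.524 against 0.432). The part of sampling at low counts in this was not tested.

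Tissue-enriched members were defined by a mean of at least 1 CPM, a value no less than 5 times the mean of any other tissue, and 6 libraries that all exceed the rest. There were 22, or 1.43% of the members that reached 1 CPM, against 1.54% of all 31305 features, so the class was not richer in such features than the table as a whole. Liver held 10 of the 22, thyroid 4, cerebellar hemisphere and left ventricle 2 each, and subcutaneous fat, spleen, lung and kidney medulla 1 each. The host peaked in the same tissue in 12 of 22. No test was made of this enrichment, because the definition already asks for separated libraries. The limma tests below cover all members, these included. For LOC108635832-OT1 and DOCK6-OT1 in liver, separation was thus already part of this definition.

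The liver members included the most abundant one. LOC108635832-OT1 (chr1:80273477-80280677) ranged in liver from 24285 to 39332 CPM (median 30468, mean 31008 ± 4865, SD, n = 6), and the highest library of any other tissue was 468 CPM. Its second gene AHSG, which encodes the plasma protein fetuin-A, holds 99.9% of its exon bases and ranged in liver from 420 to 916 CPM (median 627). Over tissues rho was 0.90 with AHSG and 0.76 with the named host. LOC102171192-OT1 (chr1:79705744-79772657) ranged in liver from 833 to 1678 CPM (median 1063), with its host at 0 in all 6 libraries and the second gene MASP1, a protease of the complement lectin pathway, with a mean of 21.98 CPM. DOCK6-OT1 (chr7:95511740-95514350) ranged from 357 to 1454 CPM (median 603). It lies inside DOCK6 and over ANGPTL8, which encodes a hormone of triglyceride metabolism, and both genes had their highest mean in liver too.

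Other enriched members marked other organs. C5H12orf40-OT1 (chr5:41026764-41126543) ranged in subcutaneous fat from 2071 to 7750 CPM, with 684 CPM the highest elsewhere, and its second gene ABCD2, a peroxisomal transporter of fatty acids, had its highest mean there as well (44.5 CPM, rho = 0.89). TTYH2-OT1 (chr19:56425123-56429162), inside the gene of a tweety-family membrane protein, ranged in cerebellar hemisphere from 523 to 735 CPM against 14.98 CPM at most elsewhere. The host TTYH2 had its top mean there too, 60.1 CPM.

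**Figure D3:**
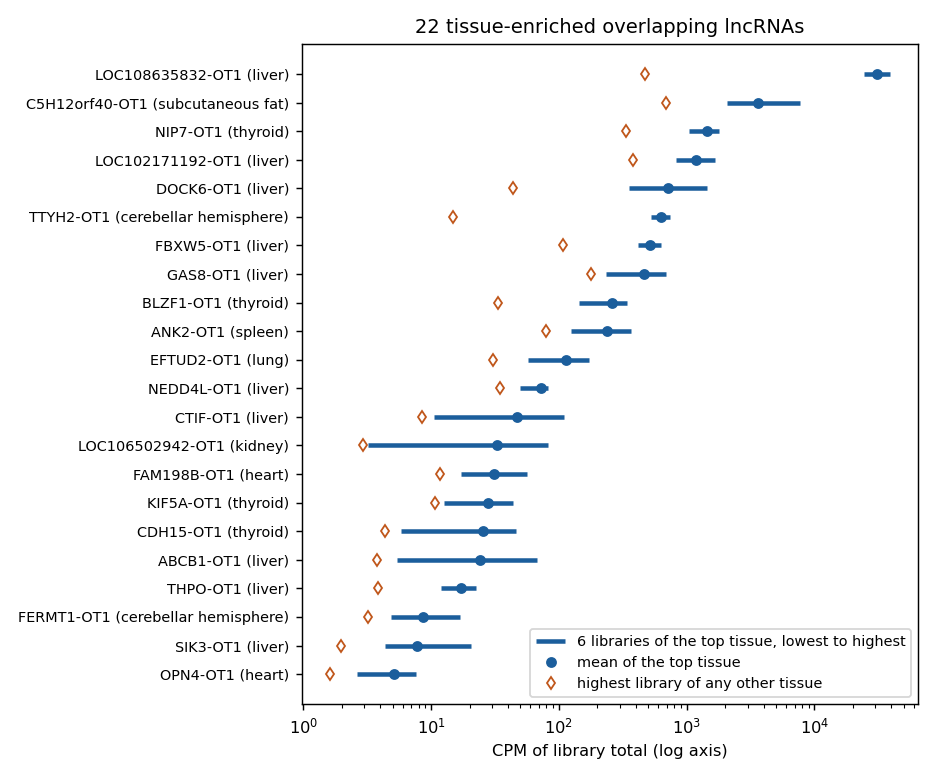
CPM of library total (log axis) of the 22 tissue-enriched overlapping lncRNAs. Bars run from the lowest to the highest of the 6 libraries of the top tissue, dots give their mean, and diamonds give the highest library of any other tissue; LOC108635832-OT1 in liver stands highest at 31008 CPM.

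Tissue sets were compared over goats, with limma over all 31305 features that reached 1 CPM. Each goat's mean log2 CPM over a set was set against its mean over the other tissues, 6 goats on each side. For brain, the pineal gland and both pituitary lobes stood on neither side, here and in the ratio test below. In the 8 brain tissues 638 members (41.4% of those tested) were higher and 446 (29.0%) lower at a Benjamini-Hochberg adjusted p under 0.05, against 40.0% and 26.8% of all features. In either direction it was 70.4% of members and 66.7% of features, so the share called was near that background. Scaling by trimmed mean of M values (TMM) turned the split to 511 higher and 572 lower, since it moved the median difference of all features from 0.13 to 0.01 on the log2 scale.

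Members named for a set are the largest changes among called members whose goat means did not overlap and whose higher mean was at least 5 CPM, so separate goats are part of the choice. Log2 differences of members near 0 on one side depend on the prior count. In brain the 4 largest rises of this kind were of members whose span also held part of a second coding gene. INO80E-OT1 (chr25:26164098-26170316) had goat means from 59.4 to 92.1 CPM in brain and 0.0398 to 0.654 CPM elsewhere, a log2 difference of 6.38 (SE 0.13, limma adjusted p = 5.98e-16). Its second gene DOC2A, a calcium sensor of vesicle release, holds 91.5% of its exon bases, and its host INO80E, a chromatin remodelling subunit, did not pass (log2 difference -0.25, limma adjusted p = 0.205). BSCL2-OT1 (chr29:41356326-41360192) lay wholly inside its host BSCL2, with 38.5% of its exon bases also inside the neuronal G protein gene GNG3. It had goat means from 98.5 to 174 CPM in brain and 1.59 to 3.50 CPM elsewhere, and rose by 6.04 (SE 0.15, limma adjusted p = 2.65e-15). Over tissues its rho was 0.80 with BSCL2 and 0.60 with GNG3. GNG3 itself had its highest mean in adenohypophysis (8.68 CPM), against 3.52 CPM in frontal neocortex, the top tissue of BSCL2-OT1. ITGBL1-OT1 (chr12:8165820-8173258) had 73.2% of its exon bases inside its host and 30.2% inside FGF14, a regulator of neuronal sodium channels. It rose by 5.99 (SE 0.09, limma adjusted p = 2.10e-17), with its host ITGBL1 rising by 5.55. LOC108637155-OT1 (chr11:72402874-72404900), over the neuronal protein gene DPYSL5, rose by 5.97 (SE 0.13, limma adjusted p = 1.29e-15). DPYSL5 itself had its highest mean in lung (6.53 CPM), against 5.80 CPM in medulla oblongata, the member's top tissue. Its rho with the member was 0.79.

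The largest falls so chosen in brain were ERI2-OT1 (chr25:18333668-18415134) and C3H1orf210-OT1 (chr3:18021721-18027959). ERI2-OT1 had goat means from 0.414 to 1.14 CPM in brain and 99.0 to 705 CPM elsewhere, a log2 difference of -4.91 (SE 0.23, limma adjusted p = 1.28e-11). It lies over ACSM3, a mitochondrial acyl-CoA synthetase, and its host ERI2, an exonuclease, fell by 1.03. C3H1orf210-OT1 had goat means from 0.424 to 0.837 CPM in brain and 27.1 to 42.7 CPM elsewhere, and fell by 4.21 (SE 0.19, limma adjusted p = 6.85e-12).

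In the 3 striated muscles, which are left ventricle, diaphragm and masseter, 135 members (8.77%) were higher and 1202 (78.1%) lower, against 6.98% and 74.5% of all features. In either direction it was 86.8% of members and 81.5% of features, again near the background. This split rests on scaling by library total: the median difference of all features was -0.77, and under TMM (-0.21) 386 members were higher and 609 lower. Changes of single members in muscle are therefore to be read relative to that shift.

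CCDC63-OT1 (chr17:16515468-16526041, - strand, 7 exons) had the largest rise of any member. Its libraries ranged from 42540 to 61689 CPM in left ventricle (median 44864), 25894 to 52757 CPM in diaphragm (median 40578) and 20611 to 41304 CPM in masseter (median 26707). Over goats it was 38957 ± 6111 CPM (SD, n = 6) in muscle and 63.7 ± 140 CPM elsewhere, where 1 neck skin library reached 10193 CPM. The log2 difference was 14.33 (SE 0.16, limma adjusted p = 2.23e-18) and 15.35 under TMM. Its host CCDC63 had a highest tissue mean of 0.562 CPM. The second gene MYL2, the regulatory light chain of cardiac and slow muscle myosin, had libraries from 944 to 1561 CPM in left ventricle, and 23.5% of the member's exon bases lie inside it.

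The next rises followed in 3 further members. LOC102169083-OT1 (chr6:6528689-6566055), with 87.4% of its exon bases in the Z-disc gene MYOZ2, had goat means from 2775 to 4455 CPM in muscle and 0.556 to 88.1 CPM elsewhere, and rose by 11.69 (SE 0.13, limma adjusted p = 2.23e-18). TRMT13-OT1 (chr3:77384453-77405761), with 82.2% in the sarcomere gene LRRC39, had goat means from 378 to 734 CPM and 5.46 to 17.4 CPM, and rose by 6.53 (SE 0.16, limma adjusted p = 7.16e-14). LSP1-OT1 (chr29:50603769-50614223) rose by 6.35 (SE 0.18, limma adjusted p = 3.83e-13). LSP1 is a leukocyte protein gene. In muscle LSP1-OT1 was not even: its libraries ranged from 138 to 219 CPM in diaphragm and 68.9 to 337 CPM in masseter, but from 6.64 to 18.4 CPM in left ventricle.

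The largest falls so chosen in muscle were LOC108637749-OT1, by 4.35 (SE 0.17, limma adjusted p = 1.43e-11), and ITGBL1-OT1, by 4.27 (SE 0.15, limma adjusted p = 6.48e-12). Their second genes are SYT14, a synaptotagmin, and FGF14. LOC108637749-OT1 had goat means from 0.370 to 1.18 CPM in muscle and 87.9 to 126 CPM elsewhere. ITGBL1-OT1 ranged from 0 to 0.337 CPM and 43.2 to 51.3 CPM. LOC108637749-OT1 had its highest mean in neurohypophysis (467 CPM) and ITGBL1-OT1 in cerebellar hemisphere (223 CPM). Both tissues stand among the other tissues here and for the digestive set below.

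**Figure D4:**
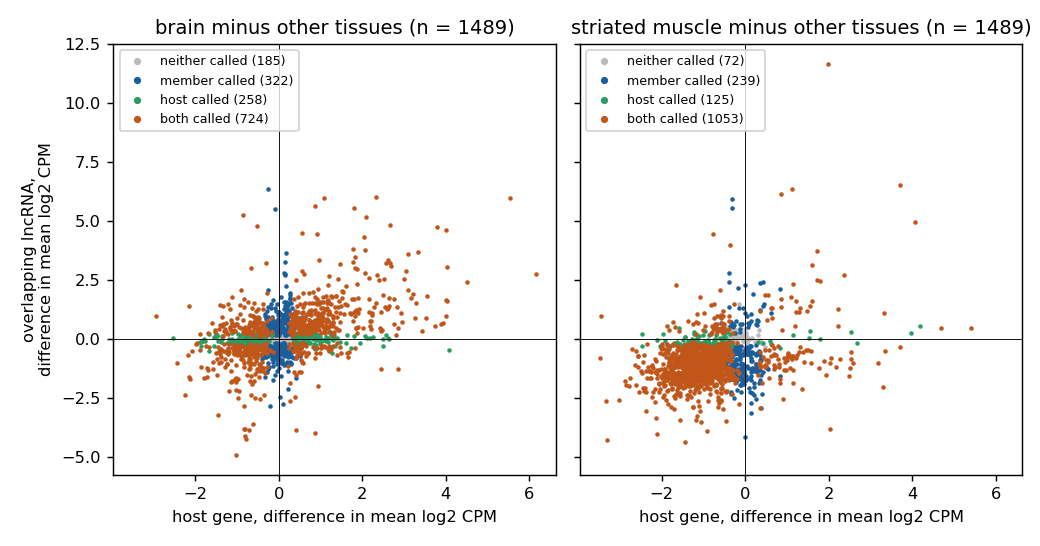
Difference in mean log2 CPM between a tissue set and the other tissues, for the host (x axis) and the overlapping lncRNA (y axis) of 1489 pairs, in brain and in striated muscle; colours mark which of the pair had a limma adjusted p under 0.05. For brain, the pineal gland and both pituitary lobes are left out of the other tissues. In muscle most pairs lie in the lower left, where member and host are both lower, and the highest point is LOC102169083-OT1 at 11.69.

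The upper digestive set was esophagus, rumen, reticulum and omasum. In it 266 members (17.3%) were higher and 661 (42.9%) lower, against 14.3% and 41.3% of all features. In either direction it was 60.2% of members and 55.7% of features. Under TMM the split was 374 and 509. LOC108633804-OT1 (chr24:62067901-62096395) rose most of those so chosen, by 8.06 (SE 0.39, limma adjusted p = 7.64e-10). Its libraries ranged from 288 to 6492 CPM in rumen, 741 to 6861 CPM in reticulum and 649 to 6638 CPM in omasum, but from 0 to 18.2 CPM in esophagus. It was thus a member of the 3 forestomachs and not of the whole set.

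YIF1B-OT1 (chr18:49015191-49016463) was more even, with goat means from 218 to 335 CPM in the set and 19.9 to 33.6 CPM elsewhere, and rose by 5.89 (SE 0.24, limma adjusted p = 2.29e-10). LOC106503127-OT1 (chr18:49799148-49805320), with 68.3% of its exon bases in the squamous epithelium gene NCCRP1, rose by 5.49 (SE 0.55, limma adjusted p = 1.02e-06). NCCRP1 itself had its highest mean in adrenal cortex (6.84 CPM), against 5.36 CPM in esophagus, the member's top tissue. Its rho with the member was 0.68. LOC106503145-OT1 (chr18:58086942-58091995), with 98.5% in the kallikrein gene KLK10, rose by 5.42 (SE 0.41, limma adjusted p = 5.41e-08). The last had its highest mean outside the set, in neck skin (90.2 ± 88.3 CPM, SD, n = 6). LOC102170360-OT1 and ITGBL1-OT1 had the largest falls so chosen, by 4.88 (SE 0.27, limma adjusted p = 2.13e-09) and by 3.52 (SE 0.28, limma adjusted p = 9.42e-08).

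In liver 270 members (17.5%) were higher and 477 (31.0%) lower, against 14.6% and 25.4% of all features (48.5% and 40.0% in either direction). LOC108635832-OT1 rose most of those so chosen, by 12.83 (SE 0.14, limma adjusted p = 7.17e-16), and DOCK6-OT1 followed with 9.86 (SE 0.28, limma adjusted p = 6.92e-12). Members over kynurenine pathway genes, which break down tryptophan, came next. LOC108637138-OT1 (chr11:24993721-25011879), over HAAO, had libraries from 2365 to 3901 CPM in liver (median 3372) and goat means from 6.48 to 56.6 CPM elsewhere. It rose by 9.77 (SE 0.16, limma adjusted p = 2.20e-14). OPN3-OT1 (chr16:33712358-33781951), over KMO, ranged from 805 to 3445 CPM in liver (median 2527) and rose by 9.57 (SE 0.36, limma adjusted p = 1.45e-10). Its host OPN3, an opsin gene, rose by 5.30.

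LOC102170360-OT1 and VLDLR-OT1 were the falls so chosen in liver and fell by 4.85 (SE 0.71, limma adjusted p = 8.41e-05) and by 4.64 (SE 0.56, limma adjusted p = 1.54e-05). VLDLR is the very low density lipoprotein receptor gene. VLDLR-OT1 (chr8:41706922-41772050) ranged from 0 to 4.63 CPM in the livers and from 19.8 to 24.8 CPM in the goat means of the other tissues. Only 0.458% of the exon bases of VLDLR-OT1 lay inside its host VLDLR, which fell by 2.01 (limma adjusted p = 0.0187).

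Hosts were set beside the called members without a test. Only called members whose host was tested too were counted. The host was called in the same direction in 528 of 1046 (50.5%) in brain and 920 of 1292 (71.2%) in muscle. The same held in 450 of 897 (50.2%) in the upper digestive set and 293 of 718 (40.8%) in liver. In the same order of sets, the host was called in the opposite direction in 196 (18.7%), 133 (10.3%), 89 (9.92%) and 58 (8.08%). The share of all features called in each direction differs between the sets, as given above, so these shares are not compared with each other. The rest of the hosts did not pass the test.

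The ratio of member to host was tested directly, as the log2 CPM of the member minus that of its host, over 7550 pairs of all lncRNA classes. In brain 913 of 1489 ratios (61.3%) differed from the other tissues, 513 higher and 400 lower, against 64.9% of all pairs (39.7% higher and 25.2% lower). In muscle 831 (55.8%) differed, 382 higher and 449 lower, against 55.4% of all pairs (21.5% higher and 33.9% lower). Both shares were near the background. Member and host changed unequally in most pairs of this class and of all pairs, which include this class. In brain a smaller share of the members had a higher ratio, 34.5% against 39.7% of all pairs.

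POLR3GL-OT1, LOC102170360-OT1 and LOC108636010-OT1 had the largest rises of the ratio in brain. POLR3GL-OT1 (chr3:99115130-99118528) had goat means from 32.4 to 43.3 CPM in brain and 0.333 to 1.27 CPM elsewhere. Its host POLR3GL, an RNA polymerase III subunit gene, had means of 2.15 and 4.15 CPM. The second gene ANKRD34A holds 93.5% of the member's exon bases and POLR3GL 20.9%. The ratio rose by 6.11 on the log2 scale (SE 0.19, limma adjusted p = 2.00e-13). LOC102170360-OT1 (chr20:6734109-6804188), with 76.2% of its exon bases in FAM169A, had goat means from 1323 to 1429 CPM in brain and 75.7 to 139 CPM elsewhere, and its ratio rose by 5.63 (SE 0.19, limma adjusted p = 3.17e-13). LOC108636010-OT1 (chr5:55064022-55080056), wholly inside the span of the brain GTPase regulator gene AGAP2, rose in ratio by 5.32 (SE 0.19, limma adjusted p = 6.43e-13).

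The ratio fell most in brain for LOC102173859-OT1, by 4.56 (SE 0.77, limma adjusted p = 5.46e-05), GAS8-OT1, by 4.27 (SE 0.24, limma adjusted p = 1.21e-10), and KIF5A-OT1, by 4.13 (SE 0.20, limma adjusted p = 2.19e-11). KIF5A is a neuronal kinesin gene. KIF5A had means of 17.4 CPM in brain and 3.54 CPM elsewhere, while KIF5A-OT1 had goat means from 0 to 0.231 CPM in brain and 1.90 to 3.47 CPM elsewhere. Host and member went in opposite directions. For LOC102173859-OT1 the goats overlapped, and the member itself did not pass in brain (limma adjusted p = 0.599) while its host rose by 4.09.

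In muscle the ratio rose most for LOC102169083-OT1, by 9.71 (SE 0.26, limma adjusted p = 2.82e-13), MIB1-OT1, by 6.25 (SE 0.16, limma adjusted p = 2.82e-13), and CEP85L-OT1, by 5.29 (SE 0.20, limma adjusted p = 1.36e-11). MIB1-OT1 (chr24:34784561-34795965) lies inside MIB1, a ubiquitin ligase gene of Notch signalling, and over no other coding gene. It ranged from 1644 to 2834 CPM in diaphragm (median 2662), 1646 to 2955 CPM in masseter (median 2002) and 374 to 1242 CPM in left ventricle (median 772), while goat means elsewhere were 26.9 to 98.1 CPM. MIB1 had means of 5.41 CPM in muscle and 6.83 CPM elsewhere.

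CEP85L-OT1 (chr9:19564866-19713173) was the second most abundant muscle member named here. It ranged from 15445 to 27914 CPM in left ventricle (median 20153), 4681 to 8296 CPM in diaphragm (median 6203) and 7631 to 14442 CPM in masseter (median 11126). The ranges of left ventricle and the other muscles did not overlap. CEP85L and the cardiac calcium pump regulator gene PLN, which hold 89.6% and 40.9% of its exon bases, had left ventricle means of 5.86 and 237 CPM. The ratio fell most for LOC108633275-OT1, by 5.84 (SE 0.59, limma adjusted p = 7.19e-07), RAET1E-OT1, by 5.32 (SE 0.22, limma adjusted p = 3.53e-11), and MYOM3-OT1, by 4.92 (SE 0.22, limma adjusted p = 1.02e-10). The host of the last, the M-band gene MYOM3, had means of 50.4 CPM in muscle and 3.16 CPM elsewhere, and MYOM3-OT1 0.654 and 1.01 CPM, with overlapping goats.

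Lactating and dry goats were compared within each tissue with edgeR's quasi-likelihood test, 3 against 3. Fewer cells of a type and less RNA per cell cannot be told apart in these bulk tissues. In mammary gland 27 of 1155 tested members (2.34%) passed at an adjusted p under 0.05, 20 higher and 7 lower in lactation, against 1.05% of all 18214 features tested. The count fell when some single goats were left out: leaving out goats 2, 6, 64 and 73 in turn gave 12, 10, 13 and 9. Such a fit has fewer goats in 1 state, and the part of this in the lower counts was not tested. DESeq2 called 70. Of the 27, 9 were called in each fit that left out 1 goat.

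The 2 largest rises in mammary gland were at low dry levels. LRRC8A-OT1 (chr11:98894018-98896227), past the 3′ end of the volume-regulated anion channel gene LRRC8A, was at 36.3, 55.9 and 68.8 CPM in lactating goats 2, 3 and 6 and at 0 in all 3 dry goats. This is at least 85.7-fold higher, against a floor of 3 counts per library (edgeR adjusted p = 0.00199). LRRC8A was also called, at 14.4 CPM against 1.82 CPM (log2 difference 3.07, SE 0.48, edgeR adjusted p = 0.0281). LMTK2-OT1 (chr25:38670197-38697729), inside the kinase gene LMTK2, was at 57.3, 28.0 and 82.5 CPM against 0.410, 0 and 0 CPM (edgeR adjusted p = 0.00387). All 3 dry values lie under 3 counts per library, so no fold is given, and the fitted log2 difference of 8.53 was 11.10 without goat 54. LMTK2 was called too, by 2.99 (SE 0.54, edgeR adjusted p = 0.0448). These were the only 2 of 22 called members with a tested host whose host was called, while the host estimate had the same sign in 20.

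The other rises were in members present in dry glands too. PTPRG-OT1 (chr22:39000385-39191220) was at 1255, 535 and 709 CPM in lactating goats and 29.9, 35.9 and 38.5 CPM in dry ones, a log2 difference of 4.72 (SE 0.40, edgeR adjusted p = 0.00193). LOC108634704-OT1, on an unplaced scaffold, was at 560, 782 and 426 CPM against 17.8, 21.7 and 26.5 CPM (4.82, SE 0.25, edgeR adjusted p = 9.93e-05). PAX9-OT1 (chr21:46292632-46661684), which extends from the transcription factor gene PAX9 into the mitochondrial carrier gene SLC25A21, was at 303, 314 and 295 CPM against 11.3, 10.4 and 13.3 CPM (4.80, SE 0.20, edgeR adjusted p = 3.32e-05). In each of the 3 the lowest lactating goat exceeded the highest dry goat. PHF3-OT1 (chr14:82117930-82158385) was at 90.3, 64.1 and 44.8 CPM against 4.10, 1.76 and 2.71 CPM and rose by 4.63 (SE 0.44, edgeR adjusted p = 0.00301).

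The largest falls in mammary gland were LOC108635849-OT1 and LOC108637953-OT1. LOC108637953-OT1 (chr18:5738658-5889663), over the protease gene ADAMTS18, was at 3.36, 7.73 and 6.66 CPM in lactating goats and 120, 145 and 73.3 CPM in dry ones, a log2 difference of -4.19 (SE 0.40, edgeR adjusted p = 0.00299). Its host had a difference of -3.78 and missed the threshold (edgeR adjusted p = 0.0613). LOC108635849-OT1 (chr4:53620102-53624336) was at 0.224, 0.227 and 0.666 CPM against 9.01, 8.99 and 6.56 CPM (fitted difference -4.27, SE 0.76, edgeR adjusted p = 0.0426). The lactating values lie at or under 3 counts per library, and the call was lost without any 1 of the 6 goats.

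In liver 40 of 1107 tested members (3.61%) passed, 20 in each direction, against 1.43% of all 17027 features. Without goats 6, 54, 64 and 73 in turn the count was 26, 8, 11 and 17, and DESeq2 called 85. Of the 40, 7 were called in each fit that left out 1 goat. EGFLAM-OT1 (chr20:35934980-35952609), on the gene of the matrix protein pikachurin, was at 23.9, 20.1 and 37.2 CPM in lactating goats and 260, 196 and 315 CPM in dry ones, a log2 difference of -3.24 (SE 0.30, edgeR adjusted p = 0.000800). PREB-OT1 (chr11:72230659-72238564) was at 34.0, 85.8 and 85.8 CPM against 10.1, 6.33 and 10.6 CPM (2.90, SE 0.38, edgeR adjusted p = 0.00565). Both were separated between the states.

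TXNL4B-OT1 and SNAI2-OT1 varied widely among goats of a state in liver. TXNL4B-OT1 (chr18:40241737-40242523) was at 28.9, 5.60 and 65.3 CPM in lactating goats and 0, 0.786 and 2.71 CPM in dry ones (4.91, SE 0.99, edgeR adjusted p = 0.0358). Its host TXNL4B rose with it, by 5.20 (SE 0.98, edgeR adjusted p = 0.0266). SNAI2-OT1 (chr14:62080749-62100747) was at 32.5, 3.04 and 5.10 CPM against 132, 128 and 105 CPM (-3.18, SE 0.66, edgeR adjusted p = 0.0418). The calls of both, and those of LOC102170360-OT1, LOC108637749-OT1 and PIK3AP1-OT1, which were lower in lactation, were lost without at least 1 goat. LOC106503576-OT1, at 0 in all 3 dry livers, is described with the other tissues.

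Over 33 tissues there were 1147 calls of a member in a tissue, 458 higher and 689 lower in lactation, in 23 tissues and of 649 members. Summed over tissues this was 3.07% of member tests, against 1.90% of all tests. Kidney medulla had 276 (24.0% of its tested members, background 15.1%), ovary 237 (20.3%, background 11.7%), pineal gland 123 (10.5%, background 7.97%) and adrenal cortex 101 (8.91%, background 3.43%). The pineal libraries of the lactating goats are those that lay nearest another tissue, and the part of this in the pineal calls was not tested. The 16 tissues with no library nearest another tissue held 803 of the calls. Most called members passed in few tissues, 370 of them in 1 tissue and 21 in at least 5.

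Where the host was tested in the same tissue, in 813 of the calls, it was called as well in 182 (22.4%), in the same direction in 174. The host estimate had the sign of the member in 627 (77.1%). The last count includes hosts that did not pass, and no value for sign agreement without a change is at hand.

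The members called in most tissues were LOC106503576-OT1 and LOC106504020-OT1. LOC106503576-OT1 (chr2:3998592-4015669), past the 3′ end of a lncRNA gene and wholly within the span of the kinesin gene KIF17, passed in 16 tissues, higher in lactation in all 16. Over the 99 libraries of lactating goats it ranged from 1.34 to 36.1 CPM (median 11.4) with none at 0, and over the 99 of dry goats from 0 to 14.7 CPM (median 0.227) with 43 at 0. All 3 lactating goats lay above all 3 dry ones in 29 of 33 tissues, and the lactating mean was the higher in 32. In liver it was at 16.1, 21.1 and 11.4 CPM in lactating goats and at 0 in the dry ones, at least 23.0-fold higher against a floor of 3 counts per library (edgeR adjusted p = 0.00240).

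By goat, the medians over 33 tissues of LOC106503576-OT1 were 9.71, 11.8 and 11.4 CPM in goats 2, 3 and 6 and 0.246, 0.398 and 0.197 CPM in goats 54, 64 and 73. LOC106504020-OT1 (chr23:20899401-20918402) passed in 15 tissues, again higher in lactation in all 15. Its medians were 114, 64.6 and 148 CPM in the lactating goats and 27.3, 27.4 and 36.02 CPM in the dry ones, and the states were separated in 29 of 33 tissues. For both members, differences between the animals and between the states cannot be told apart.

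**Figure D5:**
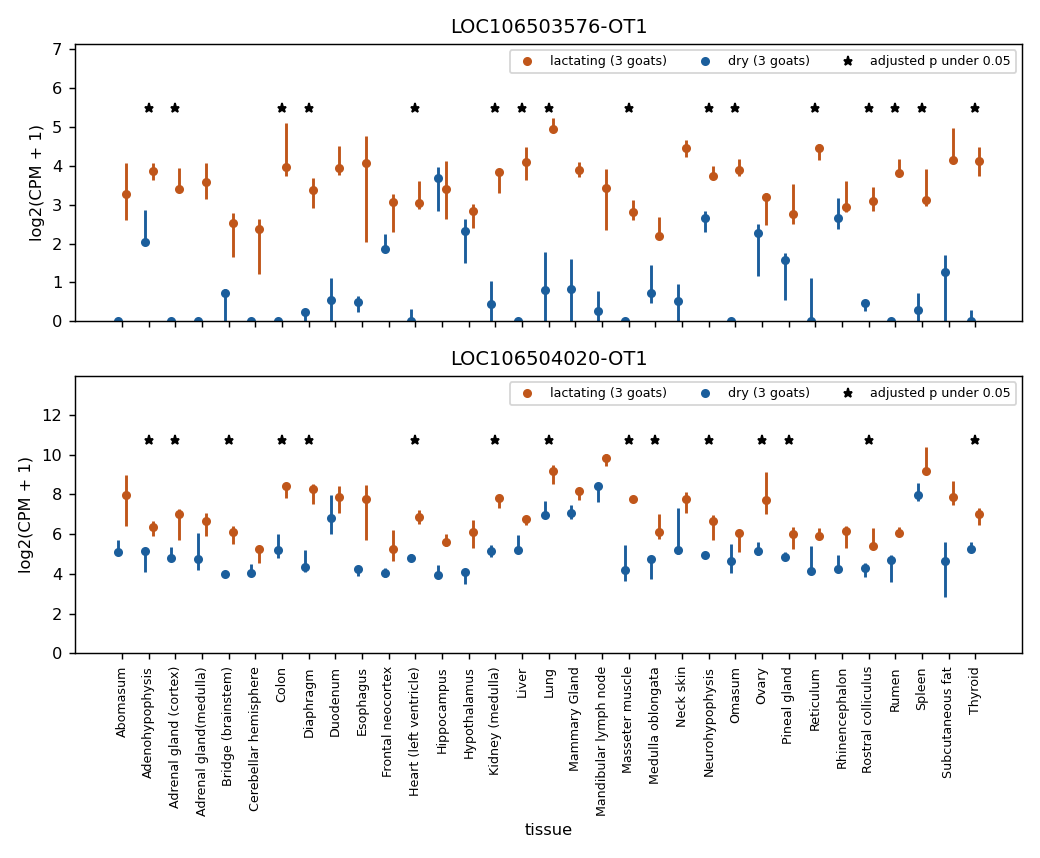
log2(CPM + 1) of LOC106503576-OT1 and LOC106504020-OT1 in 33 tissues (x axis), as median (dot) and range (line) of the 3 lactating and the 3 dry goats; stars mark tissues with an edgeR adjusted p under 0.05. The lactating mean is the higher in 32 and 33 of 33 tissues, and 16 and 15 tissues are called.

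TMEM187-OT1 passed in 7 tissues, and 7 further members passed in 6 tissues each. Of these, TMEM187-OT1 was higher in 4 tissues and lower in 3, FBXL13-OT1 higher in 1 and lower in 5, LOC106503461-OT1 higher in 4 and lower in 2, and RAD52-OT1 higher in 5 and lower in 1. The other 4 changed in 1 direction: LOC108634349-OT1 and MILR1-OT1 were higher in all 6 of their tissues, and MNS1-OT1 and RPE-OT1 were lower in all 6. Passing in 1 direction was thus not particular to the pair above.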

How the data were processed

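Total RNA of 33 tissues of 6 goats was sequenced. STAR, StringTie and edgeR are named, with no roles, per the submitters' processing notes. Versions, the genome build and the strand setting of the counting are not given in the sources used here. The authors deposited expected counts per gene, of which 37.0% of values above 0 had a fractional part (70.6% among the members). How reads in shared exons were divided between a member and other genes was not tested. The authors deposited tau as a fraction for each gene, and a table of natural log offsets, which was used for 1 alternative scaling.

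CPM was computed here as the deposited count over the library total. Goats were grouped by the labels. Tissue sets were compared with limma 3.58.1 on each goat's mean log2 CPM (prior count 2). Lactating and dry goats were compared in each tissue with edgeR 4.0.16 (quasi-likelihood test, TMM, minimum count 10) on rounded counts. P-values were adjusted over all features (Benjamini-Hochberg, threshold 0.05). DESeq2 1.42.0 was an alternative. R 4.3.3 and Python 3.11.15 were used. The tests were also run on simulated data, with 1 dispersion for all genes and no correlation of a goat across tissue sets. Goats here do correlate, as given below, so that run cannot check the tests under such correlation. Depth is in the report.

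The same 6 goats stand on both sides of a tissue set comparison. Deviations of the same goat correlated at 0.102 to 0.265 in brain, 0.282 to 0.393 in muscle, 0.245 to 0.405 in the digestive set and 0.0795 to 0.273 in liver. Named members were the 8 highest, the 6 highest and 6 lowest rho among pairs reaching 5 CPM, the 4 largest rises and 2 largest falls per tissue set with goats apart and a higher mean of at least 5 CPM, the 20 tissue-enriched ones with the highest means, the 3 largest ratio changes each way among pairs reaching 5 CPM, the 8 largest changes in mammary gland and liver, and the 5 called in most tissues. Members, lists and comparisons were chosen with earlier results of these data known. A table of the authors' CPM that ends part way was not used. Some named results are not reported here.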

Additional observations from a re-analysis of the deposited data

Results flagged for a closer look

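Of 66 named members checked in their top tissue, 6 had 1 library far from the other 5 by Dixon's criterion, which flags about 1 group in 20 by chance. CCDC63-OT1 reached 61689 CPM in the left ventricle of goat 73, and ERI2-OT1 reached 8963 CPM in the subcutaneous fat of the same goat. ABCB1-OT1 was high in the liver of goat 3 (67.8 CPM) and LOC108633275-OT1 in the spleen of goat 2 (79.2 CPM). In goat 6, NEDD4L-OT1 was low in liver (49.3 CPM) and VLDLR-OT1 in cerebellar hemisphere (28.3 CPM).

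Of 20 members checked, 8 had all lactating goats above all dry goats in one tissue and below them in another, among tissues where they passed the edgeR test. The difference between the tissues was not tested. The log2 difference, lactating minus dry, of FBXL13-OT1 was 2.22 in ovary and -2.83 in left ventricle. That of LOC106503461-OT1 was 2.26 in spleen and -1.32 in cerebellar hemisphere, and that of TMEM187-OT1 was 1.94 in left ventricle and -1.63 in neurohypophysis. LOC108635849-OT1 stood at 1.56 in kidney medulla and -4.27 in mammary gland. LOC108637749-OT1 stood at 3.86 in mammary gland and -3.67 in liver. LOC108637953-OT1 stood at 2.92 in pineal gland and -4.19 in mammary gland. LRRC8A-OT1 stood at 11.01 in mammary gland and -7.12 in kidney medulla, both fitted values that depend on the prior count where a state is at 0. PAX9-OT1 stood at 4.80 in mammary gland and -1.58 in kidney medulla.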

How the results depend on the processing

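The median rho of 0.46 was 0.39 under TMM scaling, 0.38 with the deposited offsets, 0.53 as Pearson's r, 0.52 with both genes above 5 CPM, 0.40 with no filter and 0.43 to 0.45 without each goat in turn. It was 0.44 without libraries nearest another tissue and 0.48 with totals that leave out antisense lncRNAs, both chosen after seeing the data. Counts of called members and ratios in the tissue sets, both directions together, stayed within 1.5 times under every alternative run. The split of members by direction moved more under TMM scaling, as given above, and most in muscle. With the goat as a replicate block 1106 members were called in brain, 1371 in muscle, 1003 in the digestive set and 748 in liver, with 937 and 880 ratios in brain and muscle, and the block changed no call of the 36 named results. The lactation calls moved most: 2411 over 33 tissues with no filter on low counts, 72 in mammary gland and 113 in liver with no filter, and 70 and 85 under DESeq2. Leaving out each goat in turn gave 9 to 27 in mammary gland and 8 to 32 in liver, where goats 54, 64, 73 and 6 each lowered the count by over 1.5 times. The cause was not tested. Of 16 named lactation results, 6 lost their call without at least 1 goat and none under DESeq2. No named result reversed. Depth limits values below 0.335 to 2.29 CPM, the level of 3 counts.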
